A study of Mus musculus with 8 samples.

Results

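CD8 T is the class name the authors gave to 745 of the 77393 cells in a single-cell RNA sequencing study of obstructed and control mouse kidneys, 0.963% of all cells. Its members were chosen by that deposited class name alone. The separate class CD8 effector, with 716 cells, was left out of it and serves as its nearest comparison. CD8 T was the fifth largest of the 9 lymphoid classes and held 9.87% of the 7546 lymphoid cells. Control samples contributed 170 of the CD8 T cells and obstructed samples 575, so 77.2% of the class came from obstructed kidneys, against 40.5% of all cells.

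CD8 T cells carry the co-receptor encoded by Cd8a and Cd8b1 and recognise peptides held on MHC class I, which nearly every nucleated cell displays. Naive and memory CD8 T cells circulate or settle in tissues. After activation they become effector cells that kill targets with perforin and granzymes and secrete interferon gamma. In the kidney, CD8 T cells live in the interstitium between tubules, and more of them enter after injury.

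All samples were whole kidney of C57BL/6 mice aged 7 weeks. The 2 UUO samples were taken on day 7 after the left ureter had been tied (unilateral ureteric obstruction, a surgical model of tubular injury, inflammation and fibrosis), and the 6 samples titled Control carry a control disease label. All 8 samples carry an identical treatment text, which therefore does not tell what was done to the Control animals or which of their kidneys was taken. Whether each sample came from its own animal is not stated in the labels, and p-values here may therefore reflect a technical spread between samples only. The cells were captured on the 10x Genomics Chromium system, which tags every captured transcript with a unique molecular identifier (UMI).

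The values held here for each cell are its UMIs, its detected genes, the percentage of its UMIs from mitochondrial genes, its class and its place in the authors' embedding. Gene-level values were not analysed here, so the label CD8 T could not be checked against Cd8a and Cd8b1, and no gene is given a value. The naive, memory or activated state of the cells was therefore not measured either.

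A pair of Control libraries stood apart from the rest. The numbers of cells per class in Controls 3 and 4 gave a chi-square p of 0.0509, just above the threshold of 0.05 below which they would have been kept apart. For every other pair of Control libraries (14 pairs) this p was 4.09e-41 or lower. The pair shared 10 cell barcodes and no cell with the same barcode, UMIs and genes, so they are different cells. They were counted as 1 sample, Control 3+4, which leaves n = 5 for Control and n = 2 for UUO. Libraries held 2263 to 18393 cells. The 4 largest were Controls 5 and 6 and both UUO samples, and every library under 10000 cells was a Control. No barcode was shared between CD8 T cells of different samples, and 58 of the 745 have a barcode that also occurs in some cell of another sample.

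CD8 T cells made up a larger share of the kidney's cells in UUO than in Control. The Control mean was 0.479% ± 0.671 (SD, n = 5), and the UUO mean of 1.95% ± 0.928 (SD, n = 2) was 4.07 times as high. The size of this ratio rests on Control 3+4: without it the Control mean was 0.180% ± 0.0770 (SD, n = 4) and the ratio 10.8. On the log2 odds scale, the logarithm of cells in the class over cells outside it, the difference was 2.76 (95% interval 1.10 to 4.43), and limma gave a Benjamini-Hochberg adjusted p of 0.00441 over the 28 classes. In the same test 6 of 28 classes (21.4%) were called higher in UUO and 8 of 28 were called lower.

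By sample, the share was 0.278% (exact 95% binomial interval 0.133 to 0.510, counting error only, as for all such intervals) in Control 1 and 0.109% (0.0438 to 0.224) in Control 2. It was 1.59% (1.12 to 2.20) in Control 3, 1.72% (1.34 to 2.18) in Control 4, 0.130% (0.0804 to 0.198) in Control 5 and 0.205% (0.136 to 0.296) in Control 6. UUO 1 held 1.29% (1.14 to 1.47) and UUO 2 held 2.61% (2.34 to 2.90). The groups therefore overlapped: Controls 3 and 4 lay above UUO 1 and below UUO 2, while the other 4 Control samples lay below both UUO samples.

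**Figure D1:**
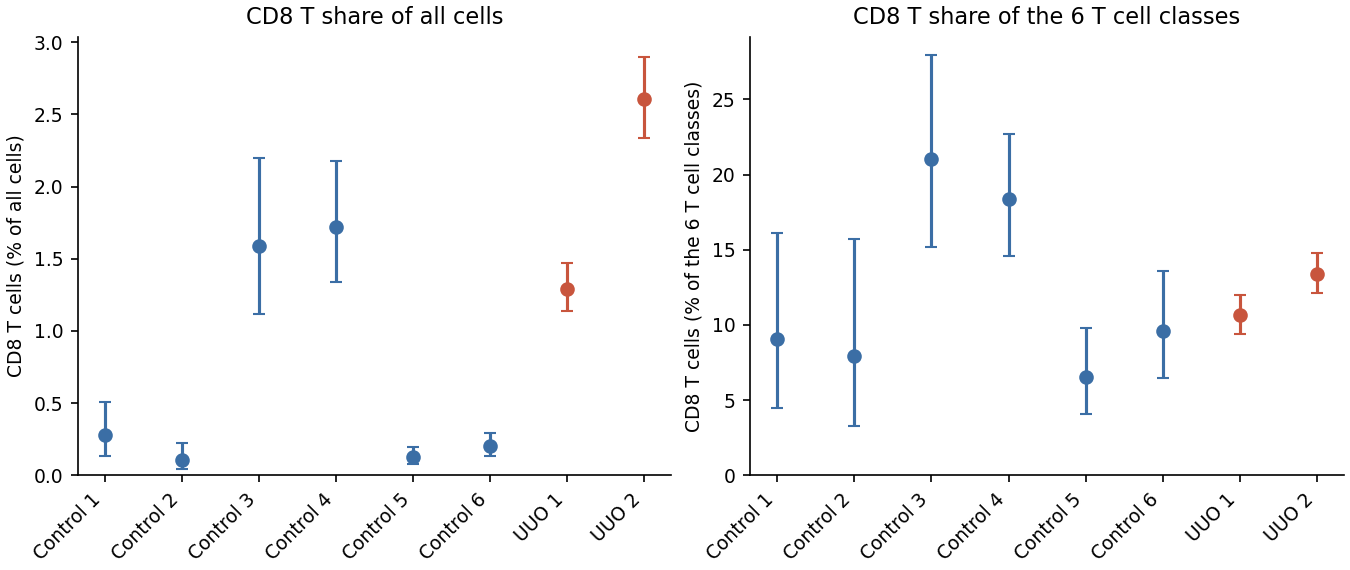
CD8 T cells as a percentage of all cells (left) and of the 6 T cell classes (right) in each sample, Control in blue and UUO in red; points are samples and bars exact 95% binomial intervals. Controls 3 and 4, at 1.59% and 1.72% of all cells, stand above the other Controls in both panels, and on the right they also stand above UUO 1 at 10.7% and UUO 2 at 13.4%.

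Without Controls 3 and 4 the log2 odds difference was 3.42 (limma adjusted p = 7.99e-05), and among the 4 libraries over 10000 cells it was 3.49 (adjusted p = 0.00178). With all 8 samples taken as separate it was 2.33 (adjusted p = 0.0373). The call did not hold in a two-sided exact permutation test of the same value (p = 0.0952, where the smallest possible is 0.0476), on the arcsine square root scale (limma adjusted p = 0.0533), without UUO 1 (3.28, adjusted p = 0.0515) or without UUO 2 (2.25, adjusted p = 0.123), and over all alternatives the limma and edgeR adjusted p ran from 7.99e-05 to 0.123. Adjusted over the 14 exact tests made, the exact permutation p of this share was 0.7. The limma variance in this comparison was shared by all classes, so its interval does not measure the spread of CD8 T itself.

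Several other T cell classes passed the same test. CD8 effector differed by 2.81 on the log2 odds scale (limma adjusted p = 0.00429), Th17, the interleukin-17 producing helper cells, by 3.10 (adjusted p = 0.00187), and Treg, the regulatory cells that restrain other T cells, by 2.83 (adjusted p = 0.00429). CD4 T, the class of helper cells outside Th17 and Treg, differed by 2.60 (adjusted p = 0.00628). NKT, T cells that see lipid antigens, differed by 1.51 (adjusted p = 0.118) and NK, innate killer cells without a T cell receptor, by 1.77 (adjusted p = 0.0623). Those last 2 did not pass the threshold, and differences between classes were not tested.

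Within immune cells the groups were less apart. CD8 T cells were 3.34%, 2.49%, 13.8%, 12.9%, 2.47% and 3.95% of immune cells in Controls 1 to 6 and 7.43% and 9.08% in UUO 1 and 2. Controls 3 and 4 exceeded both UUO samples, and the other Controls lay below both. The means were 5.09% ± 4.58 (SD, n = 5) in Control and 8.25% ± 1.17 (SD, n = 2) in UUO, with a log2 odds difference of 1.03 (−0.61 to 2.66, limma adjusted p = 0.390, exact permutation p = 0.286). No class of the 15 was called higher in UUO on this denominator (0%). Without Controls 3 and 4 the difference was 1.48 and passed the threshold (limma adjusted p = 0.0305), as it did among the 4 libraries over 10000 cells (1.45, adjusted p = 0.0456). The adjusted p ran from 0.0251 to 0.857 over the alternatives.

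Of lymphoid cells, CD8 T made up 5.71%, 4.05%, 16.3%, 14.8%, 3.87% and 6.98% in Controls 1 to 6 and 9.24% and 11.2% in UUO 1 and 2. The order was the one seen among immune cells, with Controls 3 and 4 on top and the other Controls below both UUO samples. The group means were 7.17% ± 4.69 (SD, n = 5) and 10.2% ± 1.41 (SD, n = 2). The log2 odds difference was 0.71 (−0.71 to 2.13, limma adjusted p = 0.419, exact permutation p = 0.381), and none of the 9 lymphoid classes was called higher (0%). Without Controls 3 and 4 it was 1.05 and remained short of the threshold (limma adjusted p = 0.0596), within a range of 0.0596 to 0.806 over the alternatives.

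Among the 6 T cell classes alone, the group means of CD8 T lay closer together than the spread between Control samples. The class held 9.09%, 7.95%, 21.1%, 18.4%, 6.54% and 9.62% in Controls 1 to 6 and 10.7% and 13.4% in UUO 1 and 2. The means were 10.5% ± 5.03 (SD, n = 5) in Control and 12.03% ± 1.95 (SD, n = 2) in UUO. The log2 odds difference was 0.28, and its interval of −0.79 to 1.35 leaves room for a fall as well as a rise (limma adjusted p = 0.728, exact permutation p = 0.571). It was 0.55 without Controls 3 and 4, 0.08 with 8 separate samples and 0.09 to 0.47 with 1 sample left out, and under none of the alternatives did it pass the threshold. No T cell class was called higher in UUO (0% of 6). CD8 effector differed by 0.35 and Treg by 0.34 (limma adjusted p = 0.728 for each), Th17 by 0.67 (0.370), CD4 T by −0.04 (0.956) and NKT by −1.12 (0.0920).

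The next comparison set the class against its effector counterpart. CD8 T cells were 45.5%, 38.9%, 80.0%, 64.2%, 41.2% and 57.1% of the 2 CD8 classes together in Controls 1 to 6, and 52.4% and 47.1% in UUO 1 and 2. Group means were 50.3% ± 12.5 (SD, n = 5) and 49.7% ± 3.79 (SD, n = 2). Counted as CD8 T cells per CD8 effector cell, Controls 1 to 6 gave 0.833, 0.636, 4, 1.79, 0.700 and 1.33, and UUO 1 and 2 gave 1.10 and 0.889. Both UUO samples thus lay inside the Control range, near 1 cell of each class.

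The log2 ratio was 0.03 ± 0.73 (SD, n = 5) in Control and −0.01 ± 0.22 (SD, n = 2) in UUO, and the difference of −0.05 gave an exact permutation p of 1. Its sign turned to 0.23 without Controls 3 and 4, to 0.03 among the libraries over 10000 cells and to 0.07 with cells of at least 1000 UMIs. The number of cells behind the ratio was small in Controls 1 and 2, with 10 and 7 CD8 T cells and 12 and 11 CD8 effector cells, and Control 3 reached its ratio of 4 with 36 CD8 T and only 9 CD8 effector cells.

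**Figure D2:**
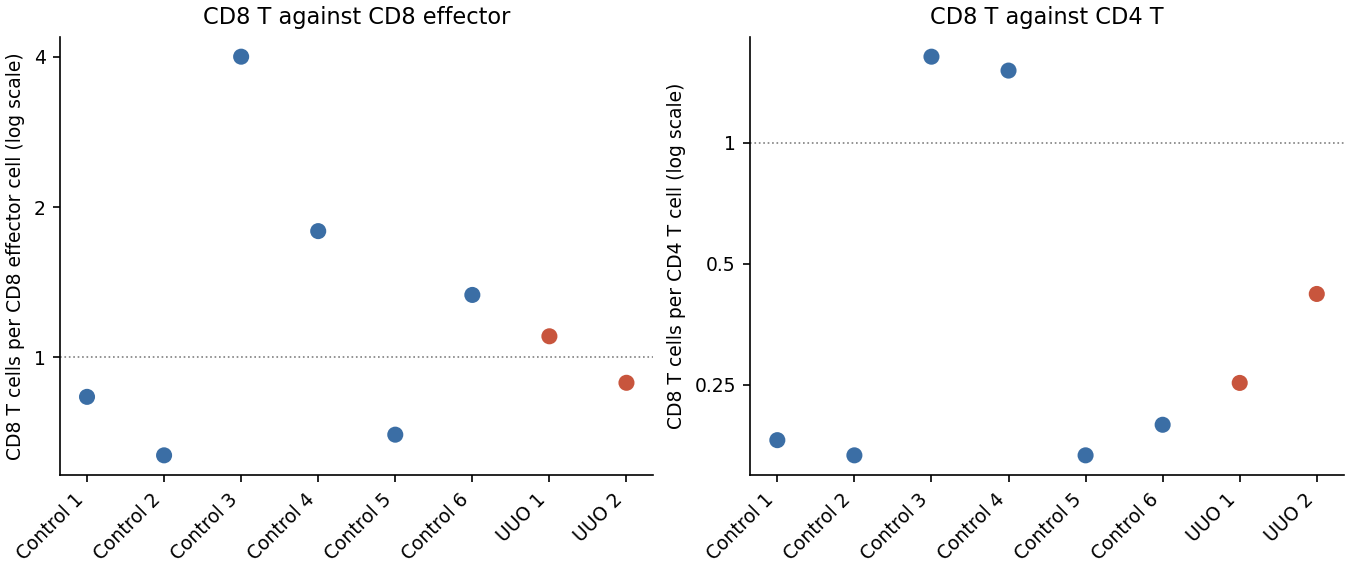
CD8 T cells per CD8 effector cell and per CD4 T cell in each sample on log axes, Control in blue and UUO in red; the dotted line marks equal numbers. Against CD8 effector the UUO samples, at 1.10 and 0.889, lie within the Controls, and against CD4 T Controls 3 and 4 stand alone at 1.64 and 1.51.

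In a comparison chosen after the values were seen, the balance of CD8 T and CD4 T cells set Controls 3 and 4 apart from the other samples. They held 1.64 and 1.51 CD8 T cells per CD4 T cell, whereas Controls 1, 2, 5 and 6 held 0.182, 0.167, 0.167 and 0.199 and UUO 1 and 2 held 0.252 and 0.420. CD4 T cells were 12.9% and 12.2% of the T cell classes in Controls 3 and 4 and 39.3% to 50% in the other Controls. Treg cells were 29.2% and 32.2% in that pair and 5.68% to 11.5% in the other Controls. In UUO 1 and 2, CD4 T held 42.2% and 31.9% and Treg 14.6% and 15.9%. Per cell of CD4 T, Th17 and Treg summed, CD8 T cells numbered 0.40 and 0.347 in Controls 3 and 4, 0.102 to 0.142 in the other Controls and 0.147 and 0.217 in UUO 1 and 2. With CD8 effector added to the numerator as well, these ratios were 0.50 and 0.541, 0.249 to 0.310, and 0.280 and 0.460. That pair also held only 1 and 4 B cells, and what set their lymphoid make-up apart was not tested.

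CD8 T cells held few UMIs, and UMIs per cell are what depth means here for cells and classes. The median over all 745 was 1659 UMIs per cell (477 to 6533). Sample medians were 1223.5, 1173, 1099.5, 1637, 1460 and 1144 UMIs in Controls 1 to 6 and 1431 and 1910 in UUO 1 and 2. Median detected genes were 609.5, 615, 614, 794, 730 and 574.5 in Controls 1 to 6 and 716 and 877 in UUO 1 and 2. UUO 2 was highest on both measures, and UUO 1 lay inside the Control range.

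Group medians were compared over samples with at least 20 CD8 T cells, which drops Controls 1 and 2 and leaves n = 3 against n = 2. UMIs per cell averaged 1402 ± 235 (SD) in Control and 1671 ± 339 (SD) in UUO, a log2 difference of 0.25 (−0.39 to 0.90, limma adjusted p = 0.539) that was 0.04 without UUO 2, 0.11 without Control 6, 0.43 without Control 4 and 0.46 without UUO 1. Genes per cell averaged 697.5 ± 110 and 796.5 ± 114, a log2 difference of 0.20 (−0.32 to 0.72, limma adjusted p = 0.466) that was 0.05 without UUO 2, 0.06 without Control 6, 0.32 without Control 4 and 0.34 without UUO 1. Over the 19 classes fitted, 10.5% were called higher in UUO for UMIs and 5.26% for genes. Exact permutation p was 0.5 for both, where 3 samples against 2 cannot go below 0.1.

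Among CD8 T cells of 1000 to 2000 UMIs, median genes were 779 in Control 3+4, 667 in Control 6, 727 in UUO 1 and 789 in UUO 2. The window bounds depth without equalising it, and median UMIs of CD8 T inside it were 1598, 1287, 1521 and 1616 in those samples. The log2 difference was 0.07 (exact permutation p = 0.667, n = 2 against 2, where the smallest possible is 0.167). CD8 effector cells in the same window had 762, 733, 795 and 816 genes in those samples, and CD4 T cells 719, 590, 686 and 691.5. CD8 T therefore lay above CD4 T in all 4 samples, and below CD8 effector in every one except Control 3+4. Median UMIs in the window were 1518, 1549, 1539 and 1565 for CD8 effector and 1396, 1489, 1581 and 1621 for CD4 T, so depth differed most in Control 6 and Control 3+4, and these class differences are only a description.

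The class had a tail of shallow cells. Cells under 1000 UMIs made up 156 of the 745 (20.9%, exact 95% interval 18.1 to 24.0). The share was 40.0%, 42.9%, 44.4%, 11.8%, 28.6% and 39.3% in Controls 1 to 6, 31.1% in UUO 1 and 10.1% in UUO 2. All other lymphoid cells of the same samples held 32.1%, 16.9%, 7.03%, 4.58%, 7.87%, 17.2%, 8.43% and 2.59%, so the CD8 T share was the higher in 8 of 8 samples. Against single classes the order varied: CD8 T was above CD8 effector in 7 of 8 samples, but below it in Control 4 (11.8% against 21.1%), and in Control 1 NKT (42.9%) and B cells (50%) were above CD8 T. It was the highest of all 9 lymphoid classes in 5 of 8 samples. The share also varied within groups, with 74 of 238 cells (25.3 to 37.4) in UUO 1 and 34 of 337 (7.09 to 13.8) in UUO 2, and with intervals of 27.9 to 61.9 in Control 3 and 5.22 to 21.9 in Control 4.

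The median depth of CD8 T cells was below that of the other lymphoid cells in 7 of 8 samples, Control 1 being the exception. On the log2 scale the gap was −0.17 in Control 3+4, −0.55 in Control 5, −0.38 in Control 6, −0.53 in UUO 1 and −0.19 in UUO 2. Control 3+4 pools unlike libraries here. Median UMIs of CD8 T against other lymphoid cells were 1099.5 against 1971 in Control 3 and 1637 against 1715 in Control 4. The means of this gap were −0.37 ± 0.19 (SD, n = 3) and −0.36 ± 0.24 (SD, n = 2), a difference of 0.0072 (exact permutation p = 0.9). That difference was 0.23 without Control 4, −0.027 without Control 3 and 0.10 with 8 separate samples. Among the 9 lymphoid classes CD8 T ranked between the lowest and the fourth lowest median UMIs in each sample. Against CD8 effector alone, CD8 T had the lower median UMIs in 6 of 8 samples (not in Control 4 and UUO 2) and fewer genes in 7 of 8 (not in Control 4).

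**Figure D3:**
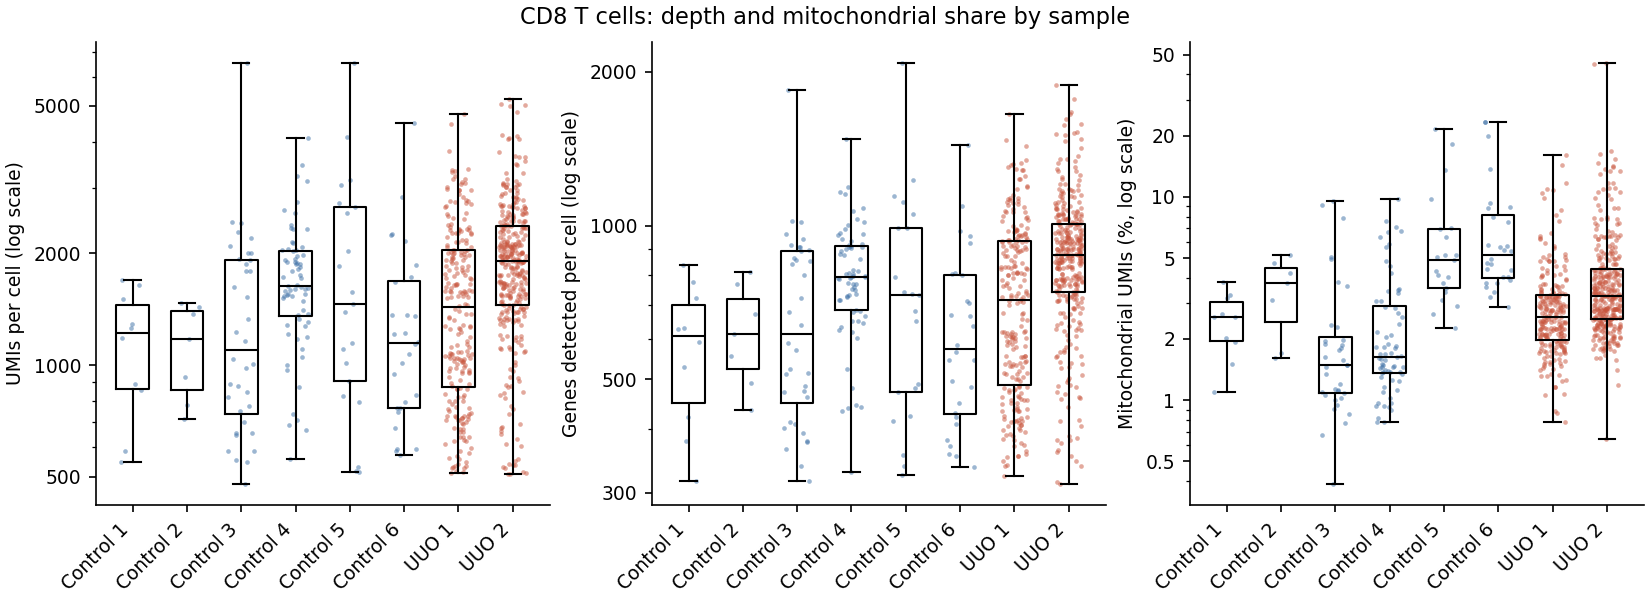
UMIs, detected genes and mitochondrial percentage of every CD8 T cell by sample on log axes, Control in blue and UUO in red; boxes show quartiles and median, whiskers the full range. UUO 2 has the highest median UMIs, 1910, and Controls 5 and 6 the highest median mitochondrial percentages, 4.90% and 5.19%.

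The mitochondrial percentage, which rises in damaged or dying cells, did not follow the groups. Medians were 2.57%, 3.76%, 1.49%, 1.64%, 4.90% and 5.19% in Controls 1 to 6 and 2.56% and 3.24% in UUO 1 and 2. The lowest were Controls 3 and 4 and the highest Controls 5 and 6, with both UUO samples between them. The means over samples of at least 20 cells were 3.89% ± 1.99 (SD, n = 3) and 2.90% ± 0.486 (SD, n = 2), a difference of −0.996 percentage points whose interval, −6.10 to 4.11, is wide (limma adjusted p = 0.887, exact permutation p = 0.5). The test called 0% of the 19 classes in either direction. Without Controls 3 and 4 the difference was −2.14 (limma adjusted p = 0.456, within 0.128 to 0.994 over the alternatives).

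The other lymphoid cells were likewise lowest in Controls 3 and 4 and highest in Controls 5 and 6, with medians over Controls 1 to 6 and UUO 1 and 2 of 2.85%, 3.19%, 1.56%, 2.05%, 5.74%, 5.62%, 2.68% and 3.39%. CD8 T minus other lymphoid was −0.22 percentage points in Control 3+4, −0.84 in Control 5, −0.43 in Control 6, −0.13 in UUO 1 and −0.15 in UUO 2. The group difference in that gap was 0.36 (exact permutation p = 0.2). Class by class, the CD8 T median ranked from 2 to 7, counted from the lowest of the 9 lymphoid classes. It was below that of CD8 effector in only 2 of 8 samples, Controls 3 and 4. Few CD8 T cells had a high percentage: 33 of 745 reached 10%. They were 3 of 21 cells in Control 5 (14.3%) and 4 of 28 in Control 6 (14.3%). UUO 1 had 6 of 238 (2.52%) and UUO 2 had 20 of 337 (5.93%). Pooled over Controls 1 to 4, 0 of 121 cells reached 10%. That allows a share of up to 2.48% by the floor of 3 counts used for a count of 0. Among the other lymphoid cells of Controls 5 and 6, Treg had medians of 30.3% and 24.6%, and proliferating lymphocytes 29.6% and 3.59%. CD8 T, at 4.90% and 5.19%, lay within the range of CD4 T, Th17, CD8 effector, NKT and NK in both libraries. That range was 3.99% to 5.22% in Control 5 and 4.52% to 5.65% in Control 6.

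In the authors' embedding, a 2-dimensional UMAP in which distance has no unit, CD8 T cells formed 1 main area. The class median lay 1.19 units from that of NKT, 1.28 from CD8 effector and 1.44 from Treg, against 2.61 from CD4 T, 3.02 from Th17 and 4.01 from NK. Only 14 cells (1.88%) lay more than 3 units from the class median. The class sat among the T cell classes, with CD8 effector close by, but how the placement and the class names were computed is not stated, so the position is no independent check of the label.

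**Figure D4:**
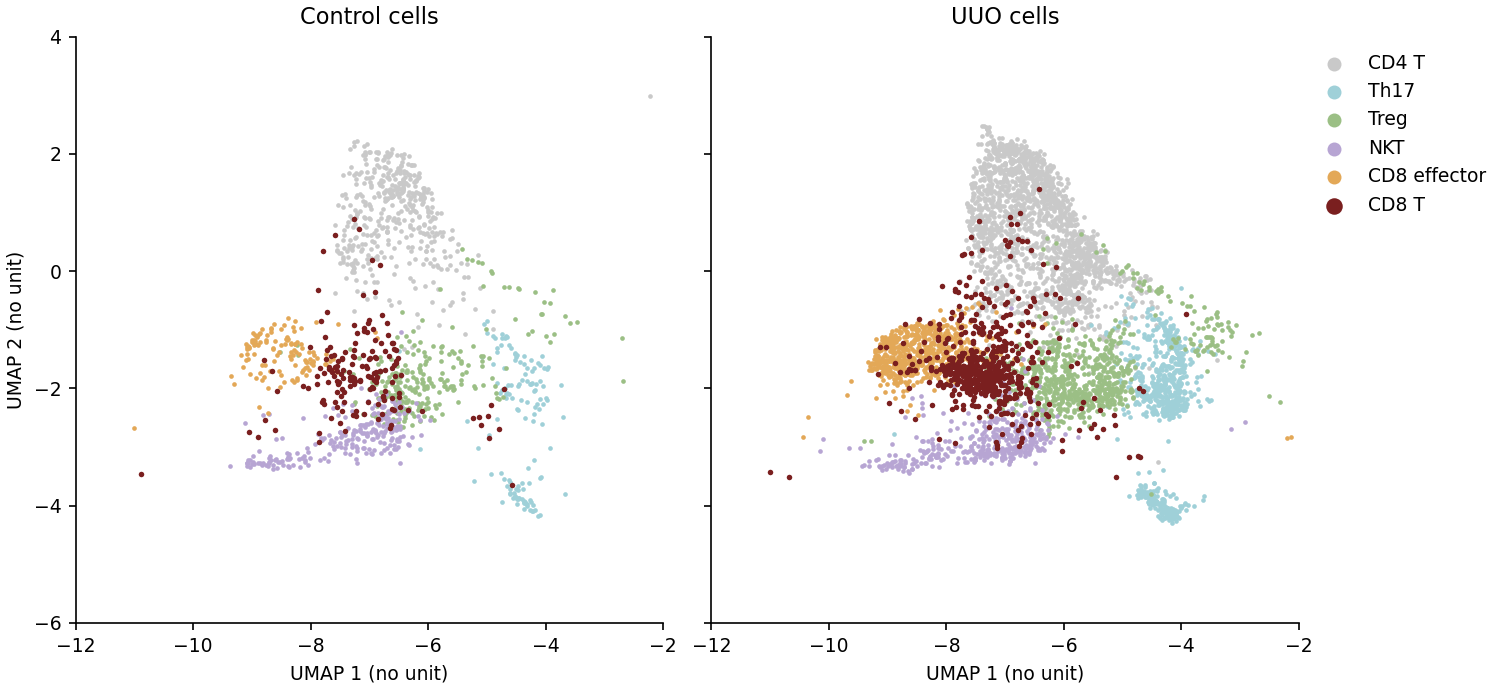
CD8 T cells of Control and UUO samples among the other T cell classes in the authors' UMAP, whose axes have no unit; 8 of the 745 CD8 T cells fall outside the plotted window. CD8 T cells of the groups overlap in an area beside CD8 effector, whose median lies 1.28 units away.

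Counting the 15 nearest cells of each CD8 T cell gave the class's surroundings. On average 56.7% of these neighbours were CD8 T cells themselves, 13.6% were CD8 effector, 11.1% Treg, 8.28% CD4 T and 7.48% NKT, with Th17 at 1.51% and NK at 0.546%. CD8 effector, Treg and CD4 T thus supplied 76.0% of the neighbours from outside the class. Cells with at least 8 of 15 neighbours of their own class numbered 443 (59.5%) and had a median of 1888 UMIs. The remaining border cells had a median of 1348.5 UMIs and were the shallower ones in 7 of 8 samples, Control 3 being the exception. Some of these samples say little. In Control 1, 9 of 10 cells had at least 8 such neighbours and in Control 2, 2 of 7. The 2 medians of Control 6 were close, at 1144 and 1110.5 UMIs.

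The position of CD8 T cells was then compared between groups. The distance between group means of the sample medians was 0.131 units (exact permutation p = 0.7, n = 3 against 2). Own-class neighbours made up 52.1% in Control 3+4, 56.2% in Control 5, 57.4% in Control 6, 53.2% in UUO 1 and 60.3% in UUO 2, and the difference of 1.53 percentage points was smaller than the spread between samples (exact permutation p = 0.8). Control CD8 T cells drew 25.6% of their CD8 T neighbours from Control, which supplied 22.7% of the other CD8 T cells, and UUO cells drew 79.3% from UUO, which supplied 77.2%. The same 2 values for single samples went both ways. They were 2.61% against 1.21% in Control 1, 0% against 0.806% in Control 2 and 19.3% against 13.8% in Control 3+4. Controls 5 and 6 gave 0.565% against 2.69% and 4.98% against 3.63%. UUO 1 and 2 gave 30.5% against 31.9% and 49.3% against 45.2%.

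The share of CD8 effector cells around CD8 T cells did not overlap between groups. It was 9.74% in Control 3+4, 6.03% in Control 5 and 9.76% in Control 6, a mean of 8.51% ± 2.15 (SD, n = 3), and 13.9% in UUO 1 and 15.9% in UUO 2, a mean of 14.9% ± 1.45 (SD, n = 2). The difference of 6.41 percentage points gave the smallest exact permutation p this design allows, 0.1, and an adjusted value of 0.7 over the 14 exact tests made, so it did not pass. Below the minimum of 20 cells, the 10 CD8 T cells of Control 1 had 2.67% CD8 effector neighbours and the 7 of Control 2 had none, too few cells to set a level. The difference was 7.02 without Controls 3 and 4, 5.98 with 8 separate samples, 5.84 over 30 neighbours and 5.79 over 50. Cells of all samples share the embedding, and 595 of the 716 CD8 effector cells (83.1%) came from UUO. Of the CD8 effector neighbours of Control CD8 T cells 83.8% were UUO cells, and of those of UUO CD8 T cells 82.0%. Whether the larger number of UUO effector cells moves this share was not tested.

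**Figure D5:**
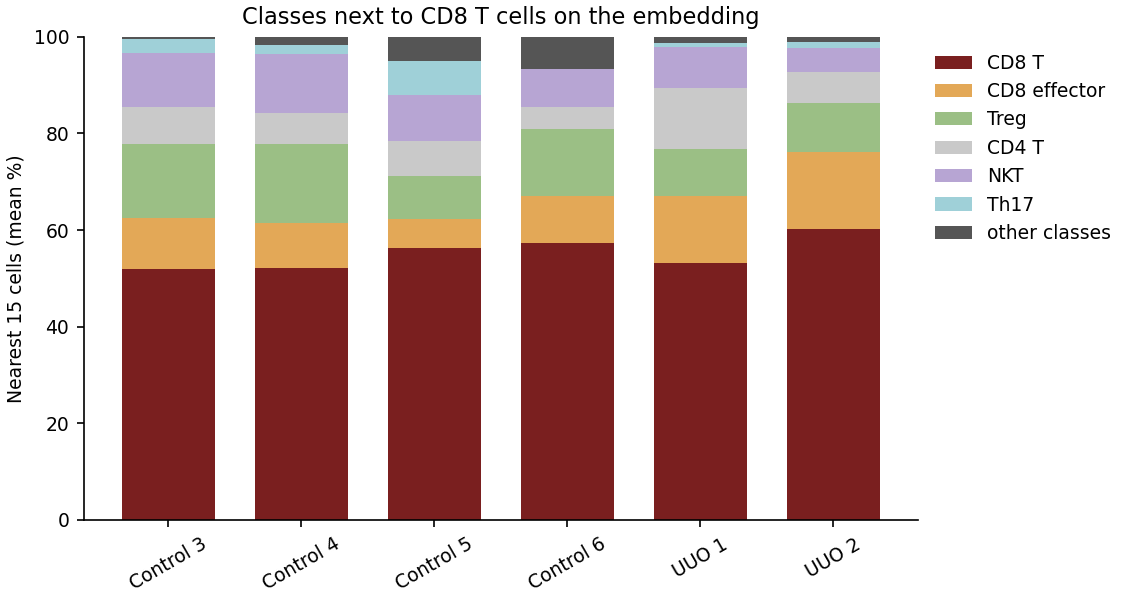
Classes of the 15 nearest cells of CD8 T cells in the embedding, as the mean percentage of neighbours by sample; Controls 1 and 2, with 10 and 7 CD8 T cells, are not drawn. CD8 effector neighbours reach 13.9% and 15.9% in UUO 1 and 2 against 6.03% to 10.7% in Controls 3 to 6, while own-class neighbours span 51.9% to 60.3% in the samples drawn.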

How the data were processed

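Each sample's group and number came from its title. Seurat 4.0.1, Cell Ranger 6.0.1 and the build mm10 are named, without their roles, per the submitters' processing notes. UMIs and genes per cell are whole counts, not normalized, per the file headers, and the mitochondrial value is a percent of UMIs, per the file headers. UMAP coordinates, a score with no unit, were deposited by the authors for the 25200 cells outside the class PT. The filtering of cells, treatment of doublets and calling of classes are not described in the sources used here. Cells of 298 to 2998 genes and up to 50.0% mitochondrial UMIs are in the table.

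Shares were compared as log2((n + 0.5)/(N − n + 0.5)) per sample with limma 3.58.1 in R 4.3.3 over 28 classes (15 immune, 9 lymphoid, 6 T cell), and sample medians over 19 classes (20 or more cells in 2 or more samples per group). Adjustment was Benjamini-Hochberg with a threshold of 0.05. Single values had exact permutation tests, adjusted over 14. They were two-sided, except that of the embedding position, which counts only distances as large or larger. Functions were tested on simulated data. Classes named by plan are CD8 T, the other T cell classes and NK, and B cells and proliferating lymphocytes are named beside them. The members and lists were chosen with earlier results of these data known. Depth was 4375942 to 56755823 UMIs per sample. Alternatives covered scale, offset, edgeR 4.0.16 with 2 scalings, minimum depth and class size, libraries left out and neighbour number.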

Additional observations from a re-analysis of the deposited data

Results flagged for a closer look

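Control 3+4 stood far above the other 4 Control samples in 4 of the 5 measures of CD8 T abundance examined for a sample far from its group. Its CD8 T share was 1.67% of all cells, 13.2% of immune cells, 15.2% of lymphoid cells and 19.2% of the T cell classes. The gap to the nearest Control sample was 0.892, 0.862, 0.727 and 0.757 of the whole Control range, above the critical value of 0.71 (Dixon's test, n = 5). The fifth measure, CD8 T cells per CD8 effector cell, did not pass it. Chance gives such a gap in about 1 of 20 groups, and the 4 shares come from the same cells, so they are not independent of each other.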

How the results depend on the processing

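The higher CD8 T share of all cells kept its direction under every alternative run, and fell short of the threshold on the arcsine square root scale (0.0787, adjusted p = 0.0533), in the exact permutation test (2.76, p = 0.0952) and without either UUO sample. With 1 sample left out it ran from 2.25 to 3.28. The share of immune cells passed only without Controls 3 and 4 (1.48), among the libraries over 10000 cells (1.45) and with the replicate number as a block (1.51, adjusted p = 0.0251). Labels give the groups only a number, and the same-numbered deviations correlated at −0.25 and −0.0037. The block was run on shares and the ratio. Its differences rest only on numbers found in both groups, Controls 1 and 2 against UUO 1 and 2. The other Controls, 3 and 4 among them, did not enter them. On those samples the share of all cells stayed called (3.34). Every setting in which the share of immune cells passed thus left out Controls 3 and 4.

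Differences that had not passed a test changed sign under some alternatives. The log2 ratio to CD8 effector was 0.23 without Controls 3 and 4, 0.0341 in the libraries over 10000 cells, 0.0656 with cells of at least 1000 UMIs and 0.42 with the replicate block, and ran from −0.21 to 0.11 with 1 sample left out. UMIs against other lymphoid cells gave −0.16 with cells of at least 1000 UMIs, where only 1 Control sample was left. The same difference was −0.12 without cells at or above 10% mitochondrial UMIs, where 2 Control samples were left. It ran from −0.16 to 0.23 with 1 sample left out, and was −0.085 without Control 5. The mitochondrial gap, 0.36 in the report, was −0.0547 with cells of at least 1000 UMIs, on the same 1 Control sample. Genes at matched UMIs ran from −0.0406 to 0.13 and own-class neighbours from −1.99 to 5.05 with 1 sample left out, and own-class neighbours were −0.0465 both without Controls 3 and 4 and among the libraries over 10000 cells. The cause was not tested. The limma fits of sample medians with minimums of 50 cells or 1000 UMIs, and the block for medians and neighbours, were not run because fewer than 2 Control samples or pairs were left.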
